A study of Mus musculus with 4 samples.

Results

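The miR-26 family of the mouse is made of 5 mature arms that come from 3 hairpins, and each hairpin lies within a gene for a small CTD phosphatase (Ctdsp1, Ctdsp2 or Ctdspl). All 5 arms were found by exact name among the 1966 miRNA listed in the count tables. They are the guide arms mmu-miR-26a-5p and mmu-miR-26b-5p and the 3p arms mmu-miR-26a-1-3p, mmu-miR-26a-2-3p and mmu-miR-26b-3p, written below without the species prefix. Small RNA was sequenced from primary cortical neurons of WT mouse embryos and of APP/PS1 mutant embryos (TgAD), with 2 libraries per genotype. TgAD mice carry transgenes for chimeric mouse/human APP, with the Swedish mutations, and for mutant human presenilin 1, both driven by the mouse prion promoter, so that expression is largely neuronal. Cortex was taken at E16.5 according to the labels, and the cells of both genotypes, plated with serum and soon moved to serum-free medium, were kept for 5 days in vitro without further treatment. According to the methods of the study each embryo was cultured separately and genotyped afterwards, so a library stands for 1 culture, and TgAD neurons come from a single transgenic line. The 4 libraries held between 2070204 and 4811010 reads counted on miRNA.

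A miRNA guides an Argonaute protein to messenger RNA that pair with its seed, bases 2 to 8 from the 5′ end, and lowers the output of those messages. miR-26 is abundant in differentiated cells, and it is known as a brake on the G1-S transition that acts on cyclins, cyclin-dependent kinases and the methyltransferase EZH2. The phosphatases encoded by its host genes remove phosphate from RB and from RNA polymerase II, and they also serve as partners of REST, the repressor that keeps neuronal genes silent outside neurons. In neuronal precursors miR-26b represses Ctdsp2, the message of one of these hosts.

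The mature sequences, taken from RefSeq on GRCm38.p6, are shown because they decide which reads could be told apart. They are written 5′ to 3′ with the seed in capitals.
miR-26a-5p: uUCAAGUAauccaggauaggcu
miR-26b-5p: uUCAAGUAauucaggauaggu
miR-26a-1-3p: cCUAUUCUugguuacuugcacg
miR-26a-2-3p: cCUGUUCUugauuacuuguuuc
miR-26b-3p: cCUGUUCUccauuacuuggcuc
Both guides share the seed UCAAGUA, and of the listed miRNA with a sequence no other has it. Over the 21 bases that both have, the guides differ at 2 positions counted from the 5′ end, C11U and C21U (miR-26a-5p first). The 3p arms miR-26a-2-3p and miR-26b-3p share the seed CUGUUCU, while miR-26a-1-3p has CUAUUCU. Over their 22 bases miR-26a-1-3p and miR-26a-2-3p differ at 6 positions, A4G, G11A, C19U, A20U, C21U and G22C (miR-26a-1-3p first), so their reads separate the miR-26a hairpins.

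In the annotation GENCODE M21 of GRCm38, all 3 hairpins are on the plus strand, as are their hosts. Mir26b occupies bases 74394310 to 74394394 of chromosome 1, inside intron 4 (74394076 to 74394639) of the coding isoform of Ctdsp1 with the most exons. Mir26a-1 occupies bases 119031796 to 119031885 of chromosome 9, inside intron 5 (119030253 to 119033535) of the coding isoform of Ctdspl with the most exons. Mir26a-2 occupies bases 126995530 to 126995613 of chromosome 10, inside intron 5 (126993909 to 126995854) of the coding isoform of Ctdsp2 with the most exons. The last also overlaps an exon of 2 of the 4 Ctdsp2 transcripts, one of them protein-coding, so this hairpin is intronic in only some isoforms of its host. The levels of the host messages were not measured in these small RNA libraries.

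The sequence of miR-26a-5p is encoded at 2 places, bases 119031811 to 119031832 of chromosome 9 and 126995543 to 126995564 of chromosome 10. Around it the 2 hairpins are identical over 25 bases, the 22 bases of the arm and the 3 that follow it. A read within this stretch fits both places equally well. How such reads were counted is not given in the sources used here. Each of the other 4 arms is encoded at 1 hairpin in RefSeq.

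The label of 1 library is in conflict between the deposited tables. A second table gives normalized values for 674 miRNA, and whole reads recovered from its column WT_1 were equal to the count table of TgAD library 1 for all 674. Its column WT_2 was equal in the same way to WT library 1, and its column TR_1 to TgAD library 2. Its column TR_2 was equal to none of the 4 count tables. No column was equal to WT library 2, so the label of that library could not be checked in this way. The libraries are grouped below as the sample labels and count tables name them. Results are also given without TgAD library 1, the only matched library whose genotype differs between the tables.

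Of the 4 neuronal markers, miR-128-3p had 43009 and 96201 reads in WT and 230643 and 240174 in TgAD libraries. The others had few counted reads, with 5 to 17 in a library for miR-129-5p, 1 to 7 for miR-124-3p and 0 in all 4 for miR-9-5p. In RefSeq miR-128-3p and miR-129-5p are encoded at 2 hairpins each and miR-9-5p at 3, and no number was available for miR-124-3p. How reads that fit several places were counted is not given, so these low counts need not mean low levels. All 3 oligodendrocyte markers, of which miR-219a-5p is encoded at 2 hairpins, and both endothelial markers had 0 reads. The myeloid miR-142a-3p also had 0 reads, while its opposite arm miR-142a-5p had 21 to 51 in a library. Counts of 0 are therefore not read as absence of a cell type. The erythroid miR-451a had 2595 to 3873 reads and the mural miR-143-3p 2051 to 2981, and summed myeloid markers reached at most 60.5 CPM. Here CPM are reads per library scaled to a common total with the TMM factors of edgeR.

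miR-26b-5p carried nearly all counted reads of the family. Its reads numbered 9877 and 10560 in WT and 4406 and 5967 in TgAD, between 96.2% and 97.1% of the reads of the 5 arms. Among all listed miRNA it ranked 29th and 39th in WT libraries and 62nd and 67th in TgAD libraries. miR-26a-2-3p followed with 289 and 373 reads in WT and 96 and 164 in TgAD libraries. The other arms had few counted reads, with 17 to 22 for miR-26a-5p, 9 to 25 for miR-26b-3p and 3 to 12 for miR-26a-1-3p in a library. A floor of 3 reads, taken as the limit of detection, corresponds to 0.746 to 1.28 CPM, and miR-26a-1-3p lay between 1.09 and 3.78 CPM. Intervals and floors cover counting error only, since the reads carry no molecular identifiers. Compared as counted reads per arm among arms of 21 and 22 bases, the order in the mean of each genotype was miR-26b-5p, miR-26a-2-3p, miR-26a-5p, miR-26b-3p and miR-26a-1-3p. Of these, miR-26a-5p and miR-26b-3p did not differ beyond the spread of their libraries. Reads of miR-26a-5p fit 2 hairpins, and how they were counted is not given. Its place in this order and the shares of the family thus need not be those in the cells.

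**Figure D1:**
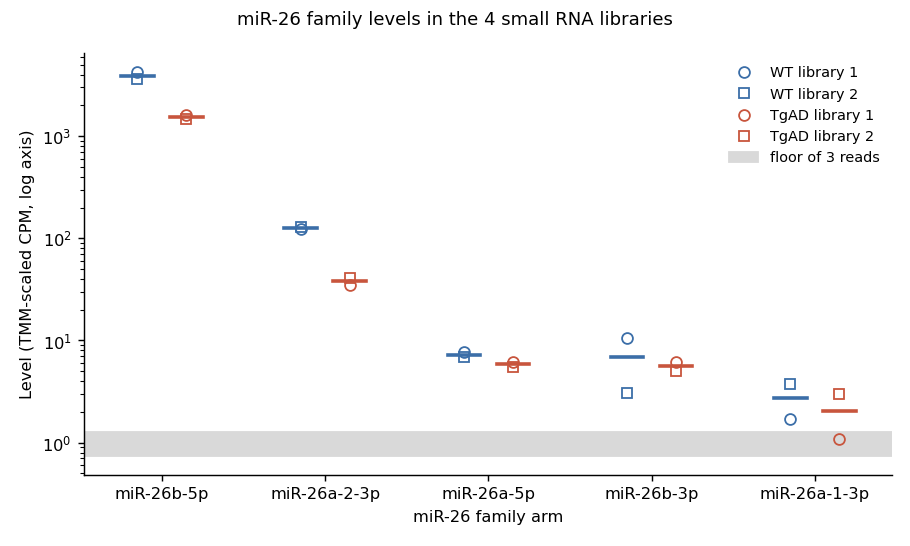
Level of each miR-26 arm in TMM-scaled CPM on a log axis, 1 point per library (circles, library 1; squares, library 2) with the mean of each genotype as a bar. TgAD points lie under WT points for miR-26b-5p, miR-26a-2-3p and, by a small margin, miR-26a-5p, and the grey band is the floor of 3 reads.

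The abundance of miR-26b-5p was lower in TgAD neurons. It stood at 4204 and 3627 CPM in the WT libraries and at 1606 and 1484 CPM in the TgAD libraries. The WT libraries were the high ones without overlap, and within each genotype the libraries lay close together. The means were 3915 ± 408 CPM in WT and 1545 ± 86.3 CPM in TgAD (SD, n = 2 each). This was a decrease of 2.53-fold, or -1.34 ± 0.195 as log2 fold change and standard error. The quasi-likelihood test of edgeR, with Benjamini-Hochberg adjustment over all tested miRNA, gave an adjusted p of 0.00934, so the difference exceeded the spread between replicates. For 1 miRNA alone, an exact permutation test of 2 against 2 libraries gives no two-sided p under 0.333, and the edgeR p rests on a spread estimated across miRNA. In bulk samples, fewer cells of a type and less RNA per cell cannot be told apart.

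miR-26a-2-3p, the 3p arm of the hairpin in Ctdsp2, fell as well. It stood at 123 and 128 CPM in the WT libraries and at 35.0 and 40.8 CPM in the TgAD libraries, with no overlap. The means were 126 ± 3.61 CPM in WT and 37.9 ± 4.10 CPM in TgAD (SD, n = 2 each). This was a decrease of 3.31-fold, or -1.72 ± 0.229 on the log2 scale, and the adjusted p of 0.00934 in the same edgeR test was equal to that of miR-26b-5p. Of the tested miRNA, ordered from the largest decrease, miR-26a-2-3p ranked 24th and miR-26b-5p 44th of 496. The ratio of miR-26b-5p to miR-26a-2-3p reads, which no scaling of the libraries can change, was 34.2 and 28.3 in WT and 45.9 and 36.4 in TgAD libraries. On the log2 scale the ratio was higher by 0.39 in TgAD, with an exact permutation p of 0.333 (two-sided), the smallest that 2 against 2 libraries allow.

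miR-26a-5p, the guide arm of both miR-26a hairpins, stood at 7.66 and 6.87 CPM in the WT libraries and at 6.20 and 5.47 CPM in the TgAD libraries. The TgAD libraries were the lower ones without overlap, but each value rests on 17 to 22 reads. At -0.32 ± 0.365 on the log2 scale (adjusted p = 0.557, edgeR), its change was smaller than its standard error. miR-26b-3p, the arm opposite miR-26b-5p, stood at 10.6 and 3.09 CPM in the WT libraries and at 6.20 and 4.97 CPM in the TgAD libraries. Both TgAD values lay between the WT values. Its log2 fold change was -0.27 (standard error 0.605, adjusted p = 0.774, edgeR), and it turned to 0.85 without WT library 1. miR-26a-1-3p, from the hairpin in Ctdspl, had 4 and 11 reads in WT and 3 and 12 in TgAD, so the genotypes overlapped, and it was not among the 496 miRNA that passed the filter on low counts.

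Of the 5 arms 4 were thus tested, and 2 of these passed a log2 fold change of 0.6 in size and an adjusted p of 0.1, the cutoffs of the study, both lower in TgAD. Over all 496 tested miRNA 33.1% passed these cutoffs, 17.3% as lower in TgAD. Both arms also passed the stricter cutoffs of 1 and 0.01, as 4.44% of the tested miRNA did, but close to the limit. With RLE normalization the adjusted p of both was 0.0108 (edgeR), over 0.01, so neither arm then met the stricter cutoffs. Without TgAD library 1 it was 0.0251 for both, and without TgAD library 2 it was 0.0153 for miR-26b-5p, while with the GC correction it was 0.0977 for miR-26b-5p and 0.0192 for miR-26a-2-3p (edgeR). The median log2 fold change was -0.83 over the 4 tested arms and 0.03 over all tested miRNA. For 3 of the 4 tested arms the TgAD libraries were the lower ones in CPM without overlap, against 32.5% of the tested miRNA. Among these 3 is miR-26a-5p, with only 17 to 22 reads in a library. For 0 of the 4 they were the higher ones, against 30.6% of the tested miRNA.

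**Figure D2:**
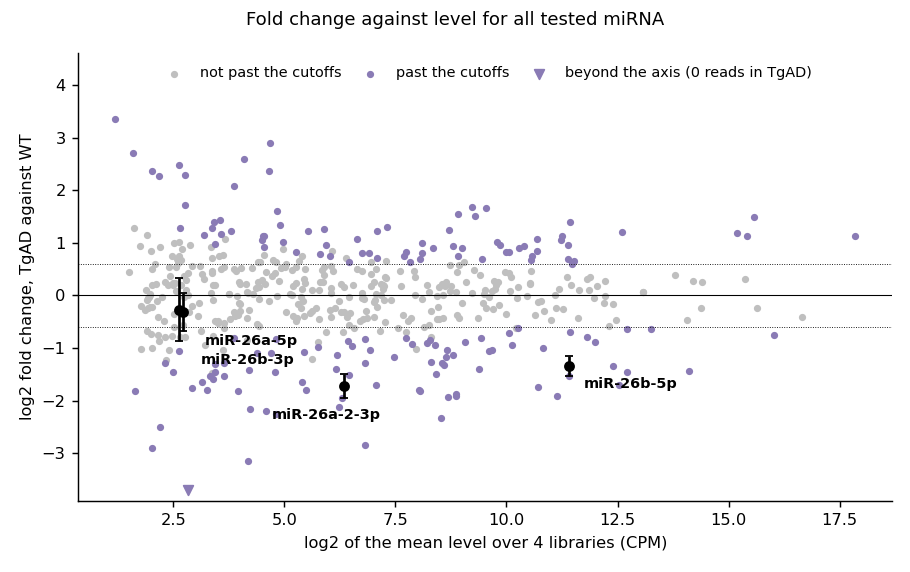
Log2 fold change of TgAD against WT for the 496 tested miRNA against the log2 of their mean level in CPM. The 4 tested miR-26 arms are named with their standard errors, and miR-26b-5p and miR-26a-2-3p lie below the dotted line at -0.6 while miR-26a-5p and miR-26b-3p lie within the dotted lines.

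Without TgAD library 1, the log2 fold change was -1.50 for miR-26b-5p and -1.72 for miR-26a-2-3p, each at an edgeR adjusted p of 0.0251. The lone TgAD library is then assumed to vary like the WT libraries. With the columns of the normalized table taken by name, which was chosen after seeing the data, the log2 fold changes were -1.12 and -1.11 with adjusted p values of 0.456 and 0.50 (edgeR). In that fit 0 of 480 miRNA passed the cutoffs and 54 had an unadjusted p under 0.05. On the scale of that table, the values of miR-26b-5p were 3842 in column WT_1, 10355 in WT_2, 3538 in TR_1 and 2878 in TR_2. The column that equals WT library 1 was thus the only high one, and the column named WT_1 was close to those named for TgAD.

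Fold changes over all miRNA moved with base composition, and the leading miR-26 arms are poor in G and C. The arm of miR-26b-5p holds 33.3% G and C, that of miR-26a-2-3p 36.4%, that of miR-26a-5p 40.9% and that of miR-26b-3p 50.0%. Among the 441 tested miRNA with a sequence, the 75 with under 40% GC had a median log2 fold change of -0.76, and 42.7% of them passed the cutoffs as lower in TgAD. The 113 with at least 55% GC had a median of 0.25, and 3.54% of them passed as lower. When each library was corrected for this trend, the log2 fold change of miR-26b-5p was -0.54 (standard error 0.217, adjusted p = 0.0977, edgeR), under the cutoff of 0.6. That of miR-26a-2-3p was -1.05 (standard error 0.262, adjusted p = 0.0192, edgeR), still past the cutoffs. The correction also moved miR-26a-5p to 0.11. The part of base composition in the decrease of either arm was not tested beyond this correction.

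**Figure D3:**
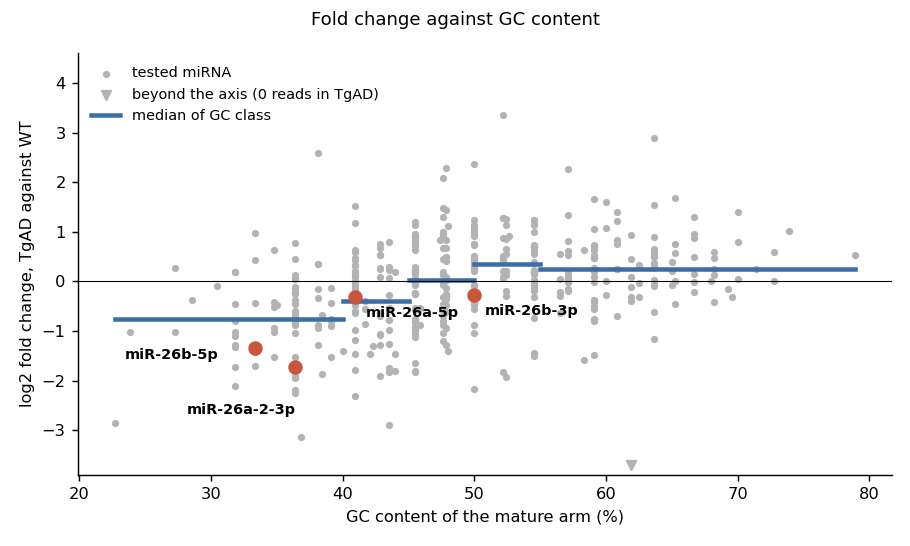
Log2 fold change of TgAD against WT against the GC content of the mature arm in percent, for the 441 tested miRNA with a sequence, with the median of each of 5 GC classes as a bar. The median goes from -0.76 under 40% GC to 0.25 at 55% and above, and miR-26b-5p and miR-26a-2-3p lie under the median of their class.

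Marker levels also differed between the genotypes. The neuronal marker miR-128-3p, which makes up nearly all of the summed neuronal markers, rose from 18305 and 33040 CPM in the WT libraries to 84058 and 59723 CPM in the TgAD libraries. This change, 1.49 on the log2 scale (adjusted p = 0.0294, edgeR), was opposite in sign to that of the leading miR-26 arms, and the change of miR-129-5p was 0.20 (adjusted p = 0.844, edgeR). The erythroid markers moved in the same direction as the miR-26 arms. Their summed level was 1310 and 1331 CPM in the WT libraries and 957 and 646 CPM in the TgAD libraries, and miR-451a, which makes up nearly all of it, had a log2 fold change of -0.72 (adjusted p = 0.0707, edgeR). The other erythroid marker, miR-144-3p, had 0 to 3 reads in a library. The parts of neurons and of red blood cells in the level of miR-26 were not tested. Summed mural markers stood at 718 to 901 CPM in WT and 756 to 827 CPM in TgAD libraries, and summed myeloid markers at 25.4 to 38.7 CPM in WT and 36.3 to 60.5 CPM in TgAD libraries.

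The arms of a hairpin were read very unevenly. Of the reads of Mir26b, 99.7% (95% Wilson interval 99.6% to 99.8%) fell on the 5p arm in WT library 1 and 99.9% (99.84% to 99.96%) in WT library 2. The share was 99.6% (99.4% to 99.8%) in TgAD library 1 and 99.7% (99.5% to 99.8%) in TgAD library 2. For miR-26a the order of the counted reads was the opposite. How reads of miR-26a-5p that fit both of its hairpins were counted is not given. The shares of miR-26a are thus shares of counted reads and need not be those in the cells. miR-26a-5p took 5.79% and 4.95% of the reads of the 3 miR-26a arms in WT libraries and 14.7% and 11.1% in TgAD libraries, although it gathers the guides of 2 hairpins. Its own reads were alike in number in the 4 libraries, and those of miR-26a-2-3p, the largest part of the total, were fewer in TgAD. Between the 3p arms of miR-26a, nearly all reads came from the hairpin in Ctdsp2. miR-26a-1-3p made up 1.37% (0.532% to 3.46%) and 2.86% (1.61% to 5.06%) of these reads in the WT libraries. It made up 3.03% (1.04% to 8.53%) and 6.82% (3.94% to 11.5%) in the TgAD libraries, and the intervals of all libraries but WT library 1 and TgAD library 2 overlap.

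The low count of miR-26a-5p was shared by some, but not all, of the other arms encoded more than once. The listed miRNA include 48 such arms with hairpins in RefSeq, and miR-26a-5p ranked 13th of them by reads. Of the 20 arms whose hairpins stay identical for at least 3 bases past the 3′ end, as those of miR-26a-5p do, none had more than 126 reads over the 4 libraries and 14 had 0. The limit of 3 bases was set from miR-26a-5p after its reads were known. Of the 28 arms with a shorter shared run, 11 had more than 126 reads and 13 had 0. For comparison, 1131 of all 1966 listed miRNA had at least 1 read over the 4 libraries, and the rest had 0. The 3 with the most reads, miR-128-3p with 610027, miR-92a-3p with 35110 and let-7f-5p with 24463, share 0 bases past the 3′ end. In 11 of the 48 arms the opposite arms had more reads, and of these miR-199a-3p, miR-344-5p, miR-344d-3p and miR-365-3p had 0 reads in all libraries. Their opposite arms were low as well, with 1, 2, 54 and 63 reads over the 4 libraries, against 952 for those of miR-26a-5p. The part that reads with several placements have in the level of miR-26a-5p was not tested.

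**Figure D4:**
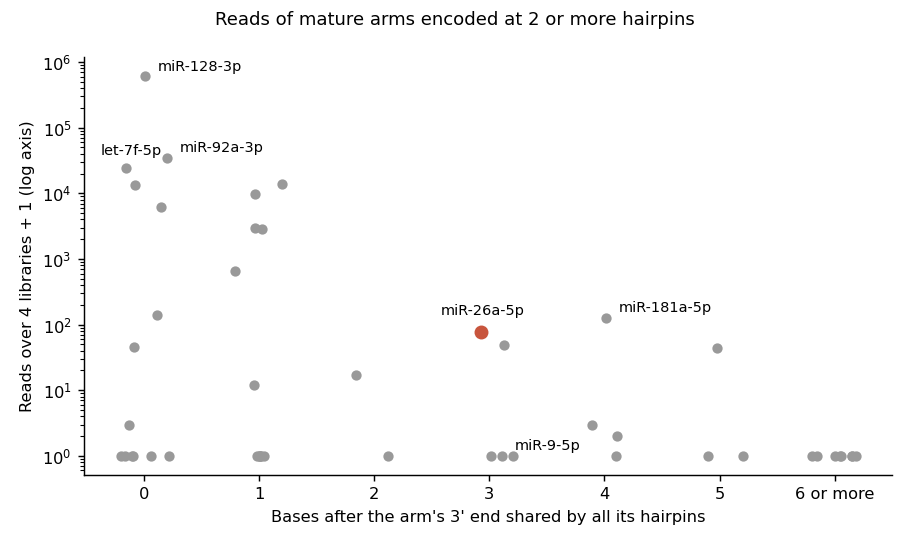
Reads over the 4 libraries, plus 1 and on a log axis, of the 48 listed mature arms encoded at 2 or more hairpins, against the number of bases past the arm's 3′ end that all its hairpins share (points are spread sideways within each number). From 3 shared bases on, no arm exceeds 126 reads; miR-26a-5p is the red point at 77 reads.

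By the largest difference over the 4 libraries in log2 CPM centred on the mean of each miRNA, 433 other miRNA with at least 10 reads in every library were compared with each of the leading arms. Nearest to miR-26b-5p were miR-210-3p, known for its induction by low oxygen, with a largest difference of 0.12, miR-449a-5p with 0.19 and miR-376c-3p with 0.20. Their log2 fold changes were -1.17, -1.13 and -1.12. Nearest to miR-26a-2-3p were miR-500-5p with 0.07, miR-3068-3p with 0.21 and miR-130a-5p with 0.21, and their log2 fold changes were -1.80, -1.82 and -1.79. The largest difference between miR-26b-5p and miR-26a-2-3p themselves was 0.36. These are descriptions over 4 libraries in which the difference between the genotypes is the main part of each pattern.

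REST, the partner of the Ctdsp phosphatases, is linked to a list of 14 neuronal miRNA that it represses or that act on its circuit. Of the 10 tested 5 were higher in TgAD past the cutoffs of 0.6 and 0.1 and 0 were lower, where 15.7% of all tested miRNA were higher. The median log2 fold change of these 10 was 0.66. The list was chosen with earlier results of these data known, so its share beside that of all tested miRNA is a description only. miR-132-3p, which follows neuronal activity, had 2228 and 2562 reads in WT and 5814 and 5640 in TgAD libraries, a log2 fold change of 0.95 (adjusted p = 0.0377, edgeR). The others that rose were miR-132-5p, miR-124-5p, miR-139-5p and miR-135b-5p, with log2 fold changes of 0.96, 2.47, 0.69 and 0.63. Few reads lie behind the value of miR-124-5p, only 4 and 6 for WT against 24 and 50 for TgAD. The size of its rise thus rests on WT counts near the floor of 3 reads. Both arms of miR-132 are counted among the 5 listed miRNA that were higher. Without TgAD library 1 only 1 was higher and 2 were lower, and without WT library 1 there were 3 higher. With total counts as library size 3 were higher and 1 lower. miR-9-5p and miR-9-3p had 0 reads, miR-29b-3p had 2 over the 4 libraries, all of them encoded at 2 or 3 hairpins, and miR-124-3p had 1 to 7 in a library.

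**Figure D5:**
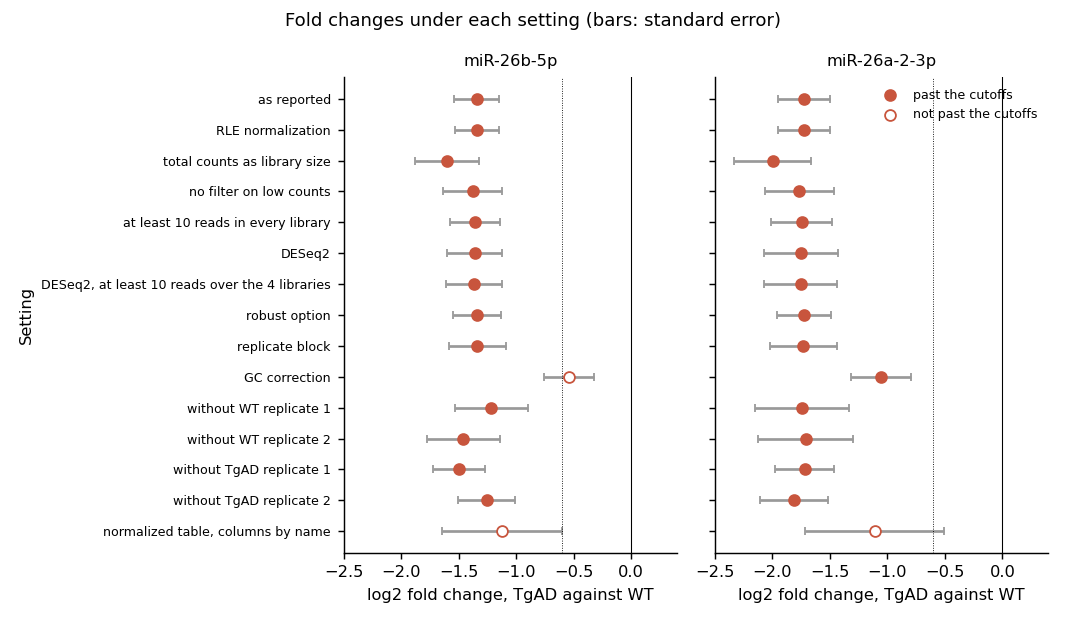
Log2 fold changes of miR-26b-5p and miR-26a-2-3p, TgAD against WT, under each setting of the analysis, with standard errors as bars and the dotted line at -0.6. Filled points are past the cutoffs; open points, miR-26b-5p with the GC correction and both arms with the columns of the normalized table taken by name, are not.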

How the data were processed

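Small RNA was sequenced from 2 WT and 2 TgAD cultures. The authors mapped adapter-trimmed reads to GRCm38 with Bowtie2 without mismatch, counted them per miRNA with HTSeq-count and miRBase, and deposited raw counts, 1 table per library. A normalized table was also deposited by the authors, a signal of counts divided by size factors. Whole reads were recovered from 100% of its values (tolerance 1e-06 reads). It served to check the labels, for values named as its own, and in an alternative in which the count test called 0 miRNA.

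Counts were tested here with edgeR 4.0.16 (R 4.3.3): TMM normalization, filterByExpr, which left 496 miRNA, and the quasi-likelihood test with genotype as the only factor, with Benjamini-Hochberg adjustment across these. The standard error is the log2 fold change divided by the square root of F. The procedure was tested on simulated data. DESeq2 1.42.0 was an alternative. GC content was corrected per library by local regression (span 0.75) of deviations in log2 CPM (prior count 2), for 441 miRNA with a sequence. Host genes come from GENCODE M21. Sequences come from RefSeq, matched by name for 1675 of 1966 miRNA. Of the arms at several hairpins, 5 were left out because the table held no matching hairpin. The replicate numbers name cultures and do not pair them.

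Named are the 5 arms, miRNA with the seed of miR-26a-5p, the 3 nearest in pattern to each leading arm, members of the REST and marker lists, and, of arms at several hairpins, the 3 with the most reads and the 3 with the fewest under an opposite arm with more (4, tied at 0). The members and lists were chosen with earlier results of these data known.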

Additional observations from a re-analysis of the deposited data

How the results depend on the processing

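miR-26b-5p and miR-26a-2-3p kept their direction under all 14 alternatives, and their calls under 12 and 13 of them. With the GC correction miR-26b-5p was at -0.54 and miR-26a-5p turned to 0.11, so that 1 of the arms passed the cutoffs. With the columns of the normalized table by name, miR-26b-5p was at -1.12 and miR-26a-2-3p at -1.11, and 0 miRNA, 0 miR-26 arms and 0 of the REST list passed. Leaving out each library in turn gave log2 fold changes from -1.50 to -1.22 for miR-26b-5p, -1.81 to -1.71 for miR-26a-2-3p, -0.50 to -0.19 for miR-26a-5p and -0.95 to 0.85 for miR-26b-3p, the last at 0.85 without WT library 1. The REST list then held 3 to 6 calls and all tested miRNA 118 to 143. Over the other alternatives on the count tables the adjusted p of miR-26b-5p ranged from 3.54e-07 to 0.0977 and that of miR-26a-2-3p from 1.05e-07 to 0.0192. With total counts as library size the median of all miRNA shifted from 0.03 to -0.23, 122 miRNA were lower and 43 higher against 86 and 78, and miR-26b-5p was at -1.60 and miR-26a-2-3p at -2.0. With the replicate block, miR-26b-5p was at -1.34 and miR-26a-2-3p at -1.73, 188 miRNA passed against 164 and no call of a miR-26 arm changed. The deviations of same-numbered libraries correlated at 0.22, and 2 pairs do not show a pairing. Causes were not tested. Few counted reads limit the 3 other arms, with at most 25 in a library. For miR-26a-5p, the part that reads with several placements have in this was not tested.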

Other observations

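The column of the normalized table that matched none of the count tables, TR_2, held 1926952 reads over 674 miRNA. In it miR-26b-5p had 1595 reads, miR-26a-2-3p 43, miR-26a-5p 5, miR-26a-1-3p 3 and miR-26b-3p 2. As RPM, reads scaled to the total of the table, miR-26b-5p stood at 828 and miR-26a-2-3p at 22.3. In the count tables miR-26b-5p stood at 4771 and 3836 RPM in the WT libraries and at 1597 and 1240 in the TgAD libraries, and miR-26a-2-3p at 140 and 136 in WT and 34.8 and 34.1 in TgAD libraries.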
